A study of Mus musculus with 4 samples.

Results

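Gene expression was compared between mouse macrophages labelled Dap12-KO and wild type (WT), both kept with interleukin-4 (IL-4). The comparison uses 2 of the 4 arrays of the study, chosen by their titles: 1 array labelled Dap12-KO IL-4 and 1 labelled WT IL-4. The other arrays held untreated cells of both genotypes. Arrays titled Dap12-KO are called KO-labelled below. All cells were macrophages collected from the peritoneal cavity of mice given thioglycolate, an irritant that draws blood monocytes into the cavity, and were kept for 18 hours on slides. Mouse strain, age and sex, the number of mice behind a sample, the IL-4 dose and how the Dap12-KO mice were made are not given in the sources used here. The study asked what macrophages lacking DAP12 express, with and without IL-4. With 1 array a side there is no replicate, so every difference below is a value with no error and no test, and the number of arrays limits its precision.

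DAP12, encoded by Tyrobp, is a small membrane adaptor that pairs with receptors lacking a signalling tail of their own, among them Trem2, Clec5a and Sirpb1a. Its ITAM motif is phosphorylated by Src family kinases and then recruits the kinase Syk, from which signals pass to phospholipase C gamma, PI3 kinase and the ERK pathway. IL-4 acts through its own receptor, JAK kinases and the factor STAT6. In macrophages it drives alternative activation and, in culture, the fusion of cells into multinucleated giant cells, a step for which DAP12 and its partner receptors are known to matter.

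With IL-4, 1128 genes (8.84% of 12767 tested) were higher on the KO-labelled IL-4 array and 637 (4.99%) were lower. Among the lowest was the gelatinase Mmp9, 16.1-fold below WT as deposited and 9.87-fold after cyclic loess, a scaling meant to reduce trends with level between arrays. Dusp6, a phosphatase of the ERK pathway, read 10.32 in WT and 6.33 on the KO-labelled array, under the level floor of 6.39, so its fold is uncertain. Of the gene lists, ERK feedback genes had 6 of 12 members lower, fusion and osteoclast genes 6 of 24 and matrix proteases 3 of 13, with 0 higher in each. Of 34 alternative activation genes 28 were neither, near the 86.2% of all genes that were neither. A gene is called higher or lower here only if it differed by 2-fold or more in one direction both as deposited and after cyclic loess.

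Values are log2, as deposited, so a difference of 1 is 2-fold. The KO-labelled IL-4 array had a narrower spread than the other 3. Its middle 50% of probe sets spanned 2.54 log2 units, against 3.24 on the WT IL-4 array and 3.19 to 3.25 on the untreated arrays. Of the 12767 genes that reached a level floor of 6.39 (the median of all values) on any array, the median gene differed by −0.39 as deposited and by 0.13 after cyclic loess. The shift depended on level. In the dimmest of 5 level classes the median difference was 0.56 as deposited, and in the brightest it was −0.55, against 0.36 and 0.03 after cyclic loess. In the next dimmest class it was 0.13 as deposited and 0.41 after cyclic loess, so part of the trend remained. The dimmest and the next dimmest class held 403 and 479 of the genes called higher. Control transcripts added to the hybridisation mix (18 probe sets) read lower on the KO-labelled IL-4 array in all 18 cases as deposited, with a median of −0.83, and in 17 after cyclic loess, with a median of −0.18. The 3′ to 5′ difference of Gapdh, a sign of RNA length, was 1.54 on the WT IL-4 array and 1.63 on the KO-labelled IL-4 array. That of Actb was 0.43 and 0.51. For each gene the brightest of its probe sets was used.

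Tyrobp, the targeted gene, read 14.13 on the WT IL-4 array and 13.27 on the KO-labelled IL-4 array, a difference of −0.86 as deposited and −0.45 after cyclic loess. On the untreated arrays it read 14.39 and 14.03. Its single probe set was thus bright on all 4 arrays, which goes against the label. The sources used here do not say which part of the gene was deleted, and probes outside that part could still read a signal. All directions below rest on the labels. Macrophage markers were bright on both IL-4 arrays, with Csf1r, the receptor for the macrophage growth factor, at 14.37 in WT and 14.20 on the KO-labelled array, and Adgre1, which encodes F4/80, at 13.06 and 13.01.

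The split of calls depended on the scaling. As deposited alone it was 1387 (10.9%) higher and 2245 (17.6%) lower, and after cyclic loess alone 1610 (12.6%) higher and 681 (5.33%) lower. Much of the higher set was faint in wild type. Of the 1128 genes, 629 (55.8%) read below the level floor on the WT IL-4 array, so the size of their difference is uncertain. The 576 that were below it on both WT arrays passed the floor only through a KO-labelled array. Among the 637 lower genes, 282 (44.3%) were below the floor on the KO-labelled IL-4 array. Both arrays were above the floor for 499 higher and 355 lower genes. In bulk RNA, fewer cells of a type and less RNA per cell cannot be told apart.

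**Figure D1:**
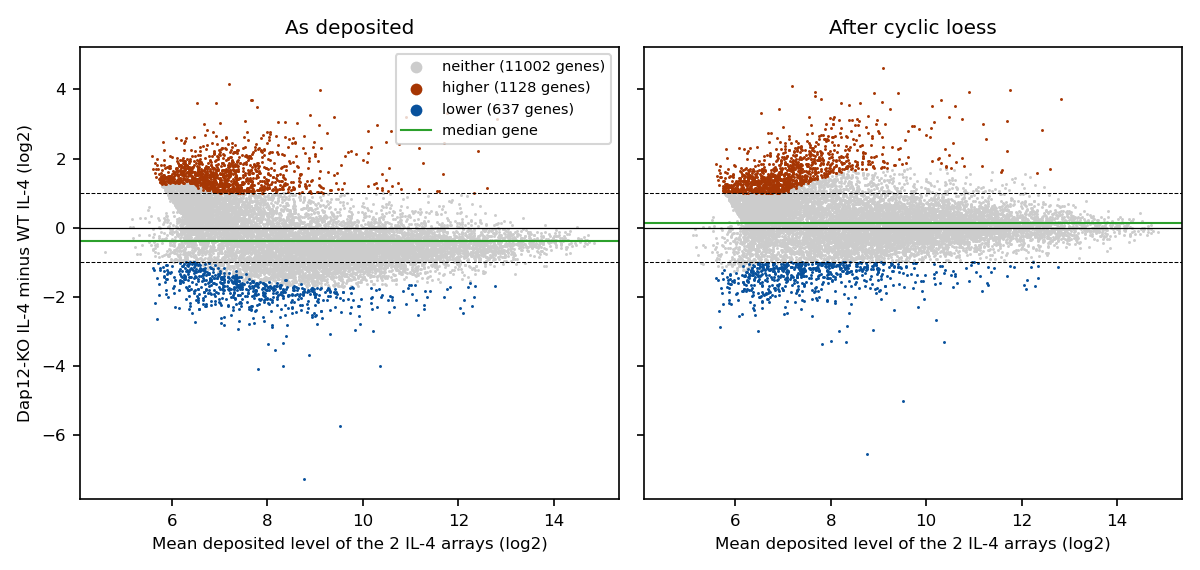
Each point is 1 of 12767 genes, with the mean deposited level of both IL-4 arrays on the horizontal axis (log2) and the Dap12-KO minus WT difference on the vertical axis (log2), as deposited on the left and after cyclic loess on the right. The 1128 genes called higher lie mostly at low levels, the dashed lines mark 2-fold, and the green line marks the median gene, at −0.39 and 0.13.

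Probe sets of one gene were compared with each other. A further probe set above the floor existed for 250 of the higher genes, and it had the same sign in 75.6% of them. Here a sign counts only if both scalings share it, so a probe set whose sign differs between them counts for neither direction. A further probe set can reach the floor through the KO-labelled IL-4 array alone, which favours the higher sign. Among the 112 whose further probe set was at the floor on both IL-4 arrays the share was 63.4%, against 20.3% of all 4185 such genes, and 23.2% were 2-fold higher, against 3.56%. For 178 lower genes held to the same condition, 73.6% had the same sign, against 53.5% of all, and 23.6% were 2-fold lower, against 5.81%. This condition was added after the data had been seen. Only 54 higher and 77 lower genes had at least 2 probe sets above the floor that were all called in the same direction.

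The genes furthest below wild type were Mid1, a microtubule-associated ubiquitin ligase, and G530011O06Rik, a transcript with no gene name of its own. Mid1 read 12.40 on the WT IL-4 array and 5.14 on the KO-labelled IL-4 array, and 11.82 and 5.57 on the untreated arrays in the same order. G530011O06Rik read 12.39 and 6.64 with IL-4, and 11.53 and 7.04 untreated. Both were thus high on both WT arrays and at or below 7.04 on both KO-labelled arrays. In the RefSeq annotation of GRCm38.p6 the G530011O06Rik gene lies inside the span of Mid1 on chromosome X. Only 1 of the 3 Mid1 probe sets showed the difference, while the others were faint on all 4 arrays and differed by 0.92 and 0.80.

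Jag1, a Notch ligand, read 9.85 in WT and 5.76 on the KO-labelled IL-4 array, against 10.74 and 8.94 untreated. Its next brightest probe set also differed, by −1.27, and the third by 0.88, and with each array's median level over the 3 the difference was −1.04, or −0.58 after cyclic loess, which ends the call. Pcdh7, a protocadherin, read 9.94 and 6.38 with IL-4 and 10.08 and 5.91 untreated. Its other probe sets differed by −3.39 and 0.79 with IL-4, the latter by 1.05 after cyclic loess. In their brightest probe sets Jag1 and Pcdh7 were lower on each KO-labelled array than on each WT array. Tmem178, a membrane protein known to restrain calcium signals in osteoclast precursors, differed by −3.68 with IL-4 and by −4.25 untreated. After cyclic loess it differed by −2.95 and −4.16. The adhesion molecule Mcam read 10.01 in WT and 6.66 on the KO-labelled array, a difference of −3.35, or −2.84 after cyclic loess. D330050G23Rik (−2.72) and the integrin chain Itgb8 (−2.64) complete the 12 lowest genes with Dusp6, Mmp9, S1pr3 and Ddx4, which are described below.

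**Figure D2:**
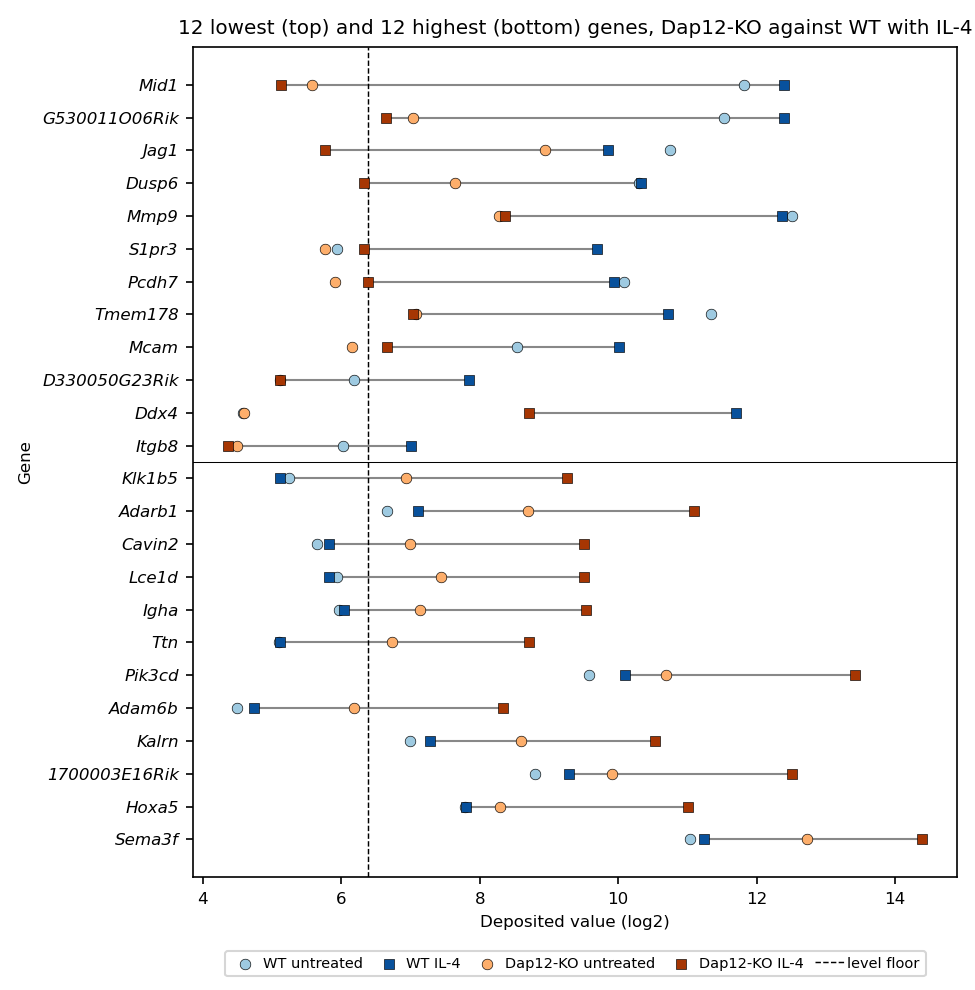
Deposited values (log2, horizontal axis) of the 12 lowest genes, from Mid1 to Itgb8, and the 12 highest, from Klk1b5 to Sema3f, on all 4 arrays (circles untreated, squares with IL-4; blue WT, orange and brown labelled Dap12-KO). The grey line joins both IL-4 arrays and the dashed line is the level floor of 6.39; 6 of the 12 highest genes lie below the floor on both WT arrays, while Ddx4 and S1pr3 are near or below it on both untreated arrays.

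Feedback inhibitors and targets of the ERK pathway made up the list with the largest share of lower members. Of 12 tested genes 6 were lower (50%, against 4.99% of all genes) and 0 higher. The list was drawn up with values of these arrays known, so its count is not independent evidence of its direction. The list median was −1.63 as deposited and −0.94 after cyclic loess, where the median of all genes was −0.39 and 0.13. Dusp6, the phosphatase that inactivates ERK and is itself induced by it, read 10.32 in WT and 6.33 on the KO-labelled IL-4 array, a difference of −4.00, or −3.31 after cyclic loess. Untreated it read 10.30 and 7.64. It was therefore alike on both WT arrays and lower on both KO-labelled arrays, where the IL-4 reading was below the floor.

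Spry2, a Sprouty inhibitor of growth factor signalling, read 8.50 in WT and 5.67 on the KO-labelled IL-4 array, and 8.78 and 6.73 untreated. The ETS factor Etv5 read 8.91 and 6.67 with IL-4, and 8.28 and 6.97 untreated, but its other probe sets differed by −0.47 and 0.34. Phlda1, an early target of the pathway, read 11.03 and 8.77 with IL-4, and 11.26 and 8.27 untreated. In these 3 genes each KO-labelled array lay below each WT array. Spred2 and the phosphatase Dusp5 were also lower, by −2.03 and −1.83, and are named here after their values were seen. The remaining 6 tested members did not reach 2-fold under both scalings. Of these, Dusp4 and Spred1 differed by −1.43 and −1.31 as deposited, but by −0.72 and −0.74 after cyclic loess, though 4 of the 7 Spred1 probe sets above the floor were lower. Spry1 (−0.05), Spry4 (−0.11) and Etv4 (0.21) differed little, and cyclin D1 (Ccnd1) was at 0.81, or 1.23 after cyclic loess. With each array's median level over a gene's probe sets, 5 of the 10 members that then reached the floor were lower: Dusp5, Dusp6, Phlda1, Spred1 and Spry2. Without IL-4, 8 of the 12 genes were lower, where 2.86% of all genes were.

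Genes of cell fusion and osteoclast differentiation were also among those lower. Of 24 tested members 6 were lower (25%, against 4.99% of all genes) and 0 higher (against 8.84%). The list median was −0.63 as deposited and −0.07 after cyclic loess, against −0.39 and 0.13 for all genes. Mmp9, a gelatinase abundant in osteoclasts, read 12.37 in WT and 8.37 on the KO-labelled IL-4 array, and 12.52 and 8.27 untreated. Both of its probe sets showed it, the second with a difference of −3.69, and it was 16.1-fold lower with IL-4. The 2 WT arrays and the 2 KO-labelled arrays thus formed separate pairs for this gene, whatever the treatment.

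Fusion genes that were higher with IL-4 on both genotypes' arrays had another pattern. E-cadherin (Cdh1), which holds macrophages together before fusion, read 11.28 untreated and 13.33 with IL-4 in WT, and 6.85 and 10.85 on the KO-labelled arrays. Ocstamp, a membrane protein needed for fusion, read 11.45 and 13.21 in WT, and 7.98 and 10.87 on those arrays. Itgb3, the beta chain of the vitronectin receptor, read 10.37 and 12.47 in WT, and 7.40 and 10.11. In all 3 the IL-4 reading of the KO-labelled array lay just below the untreated WT reading.

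The genotype differences with IL-4 of these genes were −2.48 for Cdh1, −2.33 for Ocstamp and −2.37 for Itgb3 as deposited, against −4.44, −3.46 and −2.97 untreated. After cyclic loess they were −1.79, −1.66 and −1.65 with IL-4, against −4.33, −3.37 and −2.87 untreated. Whether the differences with and without IL-4 differ beyond array error was not tested, since each is 1 value. Dcstamp, the fusion receptor related to Ocstamp, read 11.79 in WT and 9.50 on the KO-labelled IL-4 array, and 12.21 and 9.45 untreated, and is named after its value was seen. Tnfrsf11a, which encodes the receptor RANK, differed by −2.39, but its second probe set by −0.07. Other osteoclast genes did not reach 2-fold, among them tartrate-resistant phosphatase (Acp5, −0.12), cathepsin K (Ctsk, −0.88) and the factor Nfatc1 (−0.15).

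Of 13 matrix proteases and their inhibitors above the floor, 3 were lower (23.1%, against 4.99% of all genes) and 0 higher (against 8.84%). The list median was −1.11 as deposited and −0.60 after cyclic loess, against −0.39 and 0.13 for all genes. Besides Mmp9 these were stromelysin 2 (Mmp10), at 8.78 in WT and 6.43 on the KO-labelled IL-4 array, and Mmp19, at 10.03 and 7.70. Untreated, Mmp10 read 7.81 and 6.07, and Mmp19 9.54 and 7.62. Timp1, an inhibitor of these proteases, just missed the call, with −1.56 as deposited and −0.96 after cyclic loess. Macrophage elastase (Mmp12) was bright on both IL-4 arrays, at 14.65 and 13.87. The plasminogen activator inhibitor Serpinb2 differed by 0.20 with IL-4 and by −1.90 untreated. In the integrin list 2 of 17 members were lower (11.8%, against 4.99% of all genes), Itgb8 and Itgb3.

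**Figure D3:**
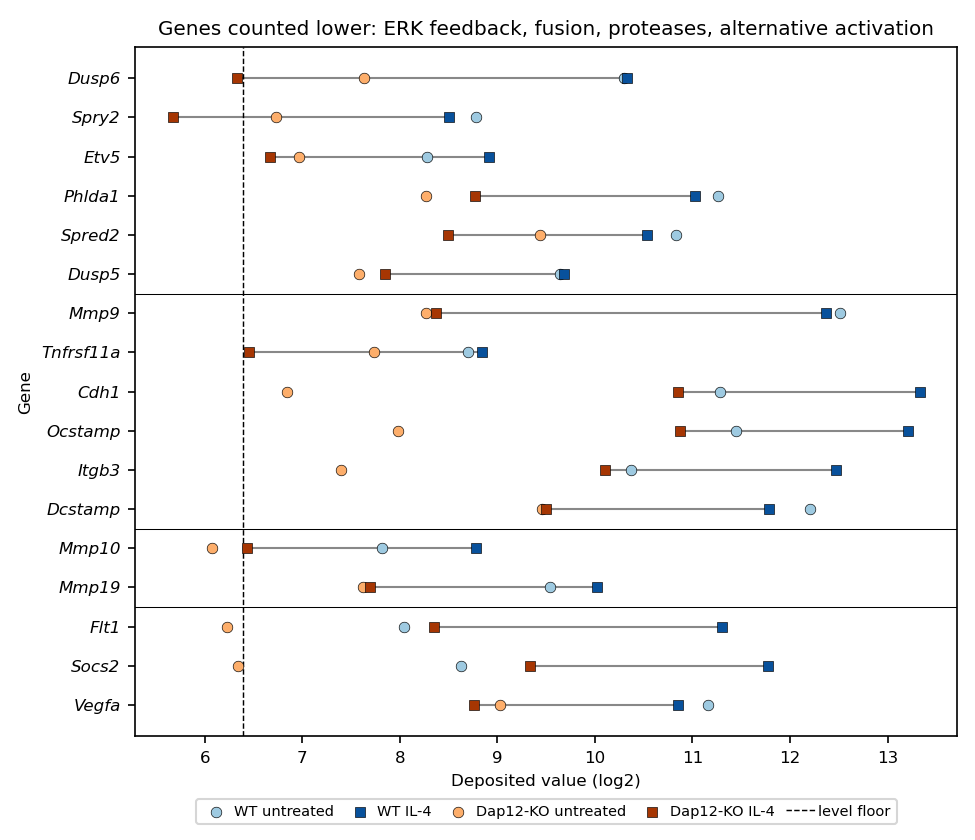
Deposited values (log2, horizontal axis) on the 4 arrays of the genes called lower in 4 lists, separated by lines: ERK feedback (Dusp6 to Dusp5), fusion (Mmp9 to Dcstamp), further matrix proteases (Mmp10, Mmp19) and further alternative activation genes (Flt1 to Vegfa). Mmp9 reads alike with and without IL-4 within each genotype label, while Cdh1, Ocstamp and Itgb3 lie to the right with IL-4 in both.

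The alternative activation genes, which IL-4 is known to induce, were mostly neither higher nor lower with IL-4, as were all genes. Of 34 tested, 4 were lower (11.8%, against 4.99% of all genes), 2 higher (5.88%, against 8.84%) and 28 neither, and the median was −0.30, close to that of all genes. As deposited alone 9 were lower, where 17.6% of all genes were. The further 5 were the chemokines Ccl17 (−1.11) and Ccl22 (−1.18), the IL-1 receptor antagonist Il1rn (−1.20), Myc (−1.26) and Gatm (−1.16), which lay between −0.43 and −0.66 after cyclic loess. Without IL-4, 12 of the 34 were lower and 2 higher, where 2.86% and 3.12% of all genes were. Arginase 1 (Arg1), which hydrolyses arginine, read 14.66 in WT and 14.37 on the KO-labelled array. The chitinase-like lectin Chil3 read 14.33 and 13.93, and the mannose receptor Mrc1 13.35 and 13.26. These 3 were chosen after their values were seen, as examples of bright members with small differences. Higher were the lipoxygenase Alox15, at 8.79 in WT and 10.07 on the KO-labelled array, and the eosinophil-type ribonuclease Rnase2a, at 9.83 and 10.98.

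Lower members included Flt1, the VEGF receptor that IL-4 also induces. It read 8.04 untreated and 11.31 with IL-4 in WT, and 6.23 and 8.35 on the KO-labelled arrays, and all 4 of its probe sets were lower, by −2.45 to −3.30. Socs2, a feedback inhibitor of cytokine signalling, read 8.63 and 11.77 in WT, and 6.34 and 9.33 on those arrays. Both genes were thus higher with IL-4 on both genotypes' arrays and started lower on the one labelled Dap12-KO. Vegfa, the ligand of Flt1, read 10.85 in WT and 8.76 on the KO-labelled IL-4 array. The fourth was Cdh1, described above.

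Members of the IL-4 receptor pathway other than Socs2 included Il13ra1, a chain of the type II receptor, which was lower with 9.11 in WT and 7.11 on the KO-labelled array. The adaptor Irs2 was higher, at 7.30 and 8.97. The other 13 of 16 were neither, among them the receptor chain Il4ra, at 9.32 and 8.68, and STAT6, at 10.88 and 10.55.

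A pair of genes with far higher readings with IL-4 in WT also differed between genotypes. Ddx4, an RNA helicase of germ cells, read 4.58 untreated and 11.71 with IL-4 in WT, and 4.60 and 8.71 on the KO-labelled arrays. S1pr3, a receptor for sphingosine phosphate, read 5.94 and 9.70 in WT, and 5.77 and 6.33. On the untreated arrays both genes were below the floor in both genotypes, so a difference there could not have been read. With IL-4, Ddx4 was 8.01-fold lower on the KO-labelled array. S1pr3 read below the floor there, and its second probe set differed by −0.83.

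Some lower genes carry known response elements in the 250 bases before their start in the RefSeq sequence of GRCm38.p6, and 3 of the 4 found among the named genes are shown because they stand for the vascular, adhesion and protease genes above. The search used the CRE, the element of CREB and ATF factors (TGACGTCA), and the AP-1 site of FOS and JUN factors (TGANTCA), on both strands, and both were picked after values had been seen. Neither motif contains the other. Capitals mark the matches. Flt1 is on the minus strand at chr5:147726012-147726261, Mcam on the plus strand at chr9:44134408-44134657 and Mmp10 on the plus strand at chr9:7502092-7502341.
Flt1: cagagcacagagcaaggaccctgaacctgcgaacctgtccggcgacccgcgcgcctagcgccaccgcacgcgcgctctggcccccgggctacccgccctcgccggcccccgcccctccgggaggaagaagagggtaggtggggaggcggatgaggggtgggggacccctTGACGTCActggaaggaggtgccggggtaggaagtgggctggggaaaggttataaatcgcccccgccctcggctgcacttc
Mcam: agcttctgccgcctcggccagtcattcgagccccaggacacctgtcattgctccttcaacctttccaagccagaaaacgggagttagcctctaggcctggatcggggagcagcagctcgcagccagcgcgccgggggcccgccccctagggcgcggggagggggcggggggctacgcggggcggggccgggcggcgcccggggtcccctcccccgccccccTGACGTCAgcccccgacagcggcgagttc
Mmp10: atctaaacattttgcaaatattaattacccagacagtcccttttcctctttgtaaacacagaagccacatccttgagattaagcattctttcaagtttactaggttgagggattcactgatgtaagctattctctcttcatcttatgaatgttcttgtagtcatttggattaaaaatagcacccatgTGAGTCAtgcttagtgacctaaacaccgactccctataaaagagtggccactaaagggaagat

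Counted from the start of the gene, the CRE begins at −81 in Flt1 and at −29 in Mcam, and the AP-1 match at −63 in Mmp10. Of the lower genes with a promoter in the table, 25 of 519 (4.82%) held a CRE, against 17 of 854 higher genes (1.99%) and 2.91% of all genes tested. For AP-1 the shares were 5.59% of lower genes, 6.79% of higher genes and 5.85% of all genes tested. Over all 32851 promoters 1.55% held the CRE and 6.75% the AP-1 letters. These matches describe sequence only.

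DAP12 itself, the related adaptor DAP10 and receptors that signal through them formed 1 list. Its median difference was −0.46, or −0.02 after cyclic loess, against −0.39 and 0.13 for all genes. Of 12 members 2 were lower (16.7%, against 4.99% of all genes) and 0 higher (against 8.84%). Clec5a, a DAP12-coupled lectin, read 9.86 in WT and 7.93 on the KO-labelled IL-4 array, and 11.52 and 9.23 untreated. Pilrb1, an activating paired receptor, read 10.18 and 8.39 with IL-4. Both were lower on the KO-labelled array with and without IL-4. Trem2, a DAP12 partner on macrophages that binds lipids, read 11.71 and 11.35, and DAP10 (Hcst) 9.45 and 8.65, so neither reached 2-fold.

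Downstream of the ITAM, 20 of 21 genes were neither higher nor lower. The kinase Syk read 12.20 in WT and 11.94 on the KO-labelled array, and the Fc receptor gamma chain Fcer1g, the other ITAM adaptor of myeloid cells, 12.57 and 12.01. The exception, the PI3 kinase subunit Pik3cd, was higher by 3.32 in its brightest probe set, at 10.10 and 13.42. None of its other 5 probe sets was higher, with differences of −0.99 to −0.08. Of 6 Fc receptor genes 0 were called, with a list median of 0.43, or 0.84 after cyclic loess.

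Inflammatory cytokines and chemokines had 4 of 18 members lower (22.2%, against 4.99% of all genes) and 1 higher (5.56%, against 8.84%). Cxcl3, a chemokine for neutrophils, read 9.51 in WT and 6.69 on the KO-labelled IL-4 array, and 11.04 and 7.53 untreated. Cyclooxygenase 2 (Ptgs2), which makes prostaglandins, read 7.61 and 5.83 with IL-4, the latter below the floor. The chemokine Ccl4 read 12.65 and 10.86, and Ccl3, named after its value was seen, 13.05 and 11.45. Csf2, the cytokine GM-CSF, was the higher one, at 6.49 and 7.65, but against genes of like level it differed by 0.85. The list median was −0.50 with IL-4 and −0.74 untreated as deposited, against −0.39 and 0.03 for all genes. After cyclic loess it was 0.03 and −0.65, against 0.13 and 0.09 for all genes. Untreated, 7 of the 18 members were lower, where 2.86% of all genes were.

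Few members of the other immune lists were called, where 8.84% of all genes were higher and 4.99% lower. Of 32 interferon-stimulated genes Mx1 was lower (−1.89) and Oas2 higher (1.33). Among 18 pattern recognition receptors, Tlr9, which senses unmethylated DNA, was higher (1.68). In the complement list of 12, the receptor C5ar1 was lower (−1.92) and factor B (Cfb) higher (1.28). None of 11 MHC class II genes was called. In the list of efferocytosis and scavenger receptors 2 of 15 were lower, the phosphatidylserine-bridging receptor kinase Axl, at 10.34 in WT and 7.92 on the KO-labelled array, and the haemoglobin scavenger receptor Cd163, at 8.27 and 6.59.

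Stress genes had a list median of −0.91, or −0.41 after cyclic loess, and 1 of 23 members was called lower (4.35%, against 4.99% of all genes). As deposited alone 9 were lower (17.6% of all genes), and without IL-4 7 were lower under both scalings (2.86% of all genes). The called gene was the cystine transporter Slc7a11, at 9.57 in WT and 7.41 on the KO-labelled IL-4 array, with both probe sets lower. None of 30 proteasome subunits was called, with a median of −0.76, or −0.23 after cyclic loess. Immediate early genes had 1 of 20 called, Klf2, a factor of quiescent cells, which was higher (1.12). The circadian gene Per2 (−1.12) and the cell cycle inhibitor Cdkn1b (−1.35) were called lower, but in each the second probe set was 2-fold higher, by 1.81 and 1.74.

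Metabolic and housekeeping lists had few calls, where 8.84% of all genes were higher and 4.99% lower. The fatty acid binding protein Fabp4 was higher (1.01), 1 of 23 genes of PPAR targets and fatty acid oxidation. Mevalonate kinase (Mvk) was higher by 1.90, 1 of 19 cholesterol synthesis and uptake genes, and the desaturase Scd2 was lower, 1 of 12 LXR targets, at 12.71 in WT and 10.69 on the KO-labelled array, in all 3 of its probe sets. Among 22 glycolysis and hypoxia genes, adrenomedullin (Adm, 1.93) and the lactate carrier Slc16a3 (1.08) were higher and Vegfa lower. Against genes of like level Slc16a3 differed by 0.66. None of 33 respiratory chain genes or 29 lysosomal genes was called. Among 22 ribosomal protein genes only Rpl14 was called lower (−1.70), and ribosomal protein probe sets can read near-identical pseudogenes. Cell division genes had Mcm4 lower (−1.94, or −1.22 after cyclic loess) and Ccna2 higher (1.25) of 21. Ccna2 read below the floor in WT, at 6.15, and its other probe set differed by −0.18. Against genes of like level Ccna2 differed by 0.86. FOXO targets had Cdkn1b alone of 15.

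Of the 12 genes furthest above wild type, 6 read below the floor on both WT arrays. Klk1b5, a kallikrein with near-identical relatives that its probes may also read, read 5.11 on the WT IL-4 array and 9.27 on the KO-labelled IL-4 array, and 5.24 and 6.94 untreated. Both of its probe sets showed it. Adarb1, an RNA editing enzyme, read 7.11 and 11.10 with IL-4, and 6.65 and 8.70 untreated. Its second probe set above the floor differed by 0.27. For both genes the KO-labelled IL-4 array was highest and its untreated counterpart next.

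The caveolar protein Cavin2 (3.69), the cornified envelope protein Lce1d (3.68), the muscle protein titin (Ttn, 3.60) and the immunoglobulin genes' neighbour Adam6b (3.60) were all below the floor on both WT arrays. The same held for the immunoglobulin alpha chain Igha (3.49). In Cavin2 the other probe sets did not follow. Those of Igha differed by 0.91 and 0.05, short of 2-fold, and with each array's median level over its probe sets the difference was 1.02, or 1.03 after cyclic loess. Sema3f, a secreted guidance factor, was bright throughout, at 11.24 in WT and 14.39 on the KO-labelled IL-4 array, and 11.04 and 12.73 untreated, and all 3 of its probe sets were higher. Kalrn (3.25), 1700003E16Rik (3.21) and the homeobox gene Hoxa5 (3.21) each rested on 1 probe set above the floor. The 12, with Pik3cd described above, were also above WT without IL-4, by 0.52 to 2.05, as were 52.6% of all genes tested. For those below the floor on both WT arrays the size of that difference is uncertain. Adam6b was below the floor on both untreated arrays, at 4.50 and 6.18, so a difference there could not have been read.

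Markers of other cell types were mostly faint. Of 12 neutrophil markers measured 4 were below the floor on both IL-4 arrays, S100a9 among them. The antimicrobial peptide Camp (5.89 in WT and 8.20 on the KO-labelled array) and elastase Elane (6.08 and 7.27) were higher. Elane reached the floor on the KO-labelled IL-4 array only, and against genes of like level it differed by 0.78. The abundant granulocyte gene S100a8 differed by −1.34. The summed deposited log2 levels of the neutrophil markers were 80.1 in WT and 85.3 on the KO-labelled array. Such sums carry the shift with level, by which the dimmest class of genes read higher on that array by a median of 0.56. They therefore do not measure cell numbers, here or for the cell types below. Eosinophil peroxidase (Epx) was higher (1.39) and Siglecf lower (−1.31), with 3 of 6 eosinophil markers below the floor and sums of 34.4 and 35.5. Epx too reached the floor on the KO-labelled IL-4 array only, and against genes of like level it differed by 0.52. Cd8a (1.47) was higher and Gzma (−1.18) lower among T and NK cell markers, of which 7 of 13 were below the floor, with sums of 87.4 and 89.9. The histamine enzyme Hdc (1.65) was the called mast cell gene, with 5 of 10 markers below the floor, Kit among them, and sums of 63.5 and 65.2. None of the 8 B cell, 9 mesothelium and fibroblast or 8 dendritic cell markers above the floor was called, with sums of 71.0 and 71.4, of 101 and 103 and of 85.1 and 83.8. The part of other cells in the results above was not tested.

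Among macrophage identity genes, 2 of 18 were lower (11.1%, against 4.99% of all genes), Axl and Cd163, and 0 higher (against 8.84%). Their summed deposited log2 levels were 206 in WT and 197 on the KO-labelled array, where bright genes as a whole read lower. The median of these 18 genes was −0.28 as deposited and 0.22 after cyclic loess, against −0.39 and 0.13 for all genes. Markers of resident cavity macrophages, a population that thioglycolate largely displaces, had 2 of 15 higher (13.3%, against 8.84% of all genes), Tgfb2 (5.84 in WT and 7.61 on the KO-labelled array) and Garnl3 (5.80 and 7.17), and 0 lower. Garnl3 reached the floor on the KO-labelled IL-4 array only, and against genes of like level it differed by 0.97. Their list median was 0.15 as deposited and 0.85 after cyclic loess, against −0.39 and 0.13 for all genes. The defining factor Gata6 read 7.26 and 7.70, and the lubricin gene Prg4 11.28 and 11.91. Untreated, 7 of the 15 were higher, where 3.12% of all genes were. Of the sex-linked genes Xist was bright on both IL-4 arrays, at 13.21 and 12.97, and 3 Y chromosome genes were below the floor.

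**Figure D4:**
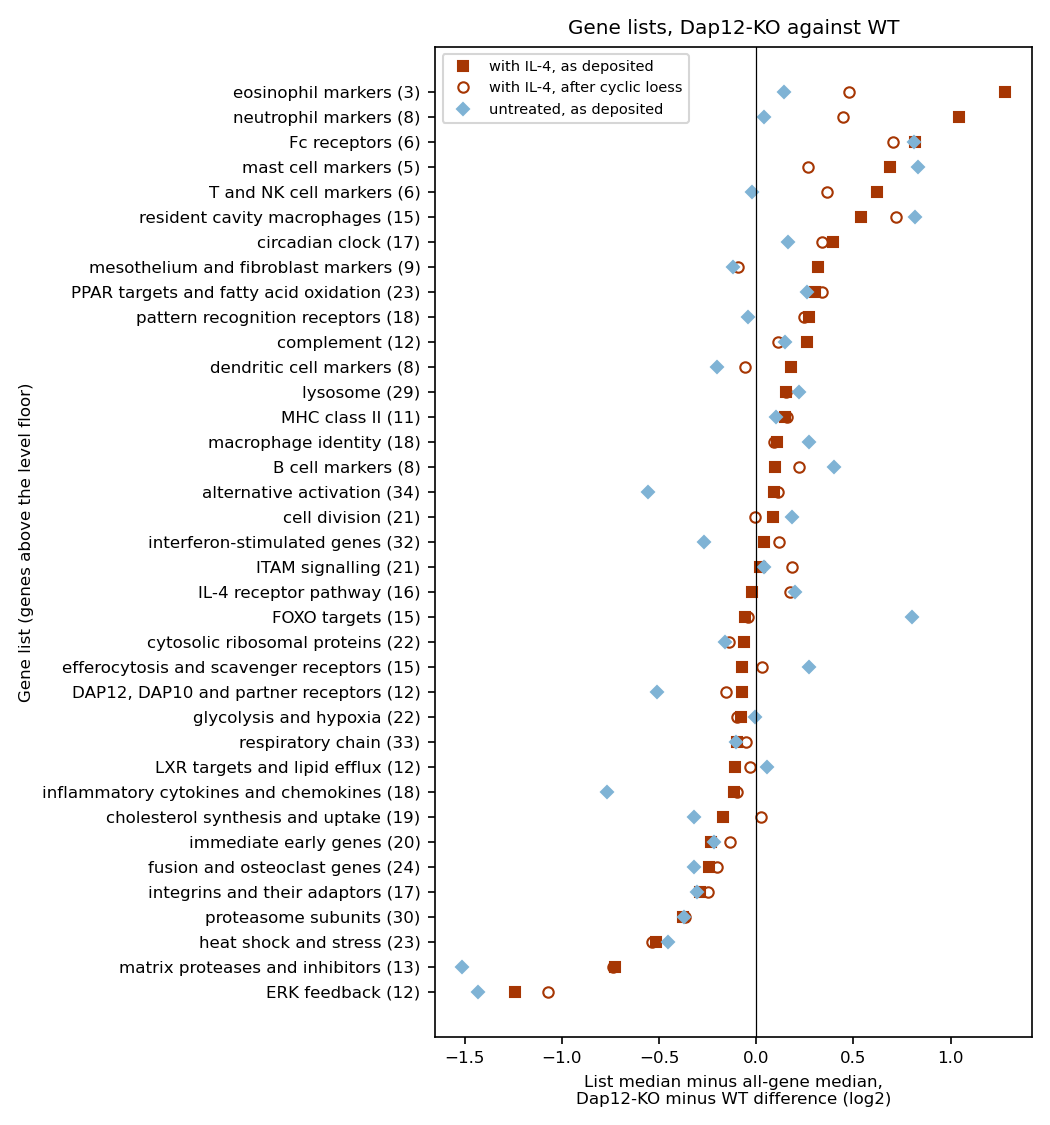
For each gene list with 3 or more tested genes (vertical axis, with the number of genes above the floor) the horizontal axis gives its median Dap12-KO minus WT difference minus the median of all genes, in log2. Filled squares are the IL-4 arrays as deposited, open circles the same after cyclic loess, and diamonds the untreated arrays as deposited. ERK feedback and matrix proteases lie lowest with IL-4, and 6 of the lists shown lie on opposite sides of 0 under the 2 scalings.

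The untreated pair of arrays shares no array with the IL-4 pair, though nothing in the labels says whether the cells of a genotype came from the same mice. Of the 637 genes lower with IL-4, 141 were also lower untreated (22.1% of the IL-4 set and 38.6% of the 365 lower untreated) and 6 were higher. Over all genes tested, 2.86% were lower untreated and 4.99% lower with IL-4. Of the 1128 genes higher with IL-4, 48 were higher untreated (4.26% of the IL-4 set and 12.1% of the 398 higher untreated) and 1 was lower. These shares were near those of all genes tested, of which 3.12% were higher untreated and 8.84% higher with IL-4. The sign alone, if shared by both scalings, was counted over genes at the floor on both untreated arrays. This floor condition was added after the data had been seen, since many higher genes entered only through a KO-labelled array. The sign was shared by 77.0% of 566 lower and 88.9% of 503 higher genes, where 43.4% and 48.5% of all 10578 such genes had it. Over all called genes, the median untreated difference was 0.32 for the higher and −0.46 for the lower ones. Across the 12767 genes both differences correlated at r = 0.479 (rho = 0.509), as a description of these 4 arrays, in which genes are not independent replicates. The 6 genes counted in the same direction with the largest smaller difference were Mid1, G530011O06Rik, Mmp9, Pcdh7, Tmem178 and Dusp6, all lower.

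**Figure D5:**
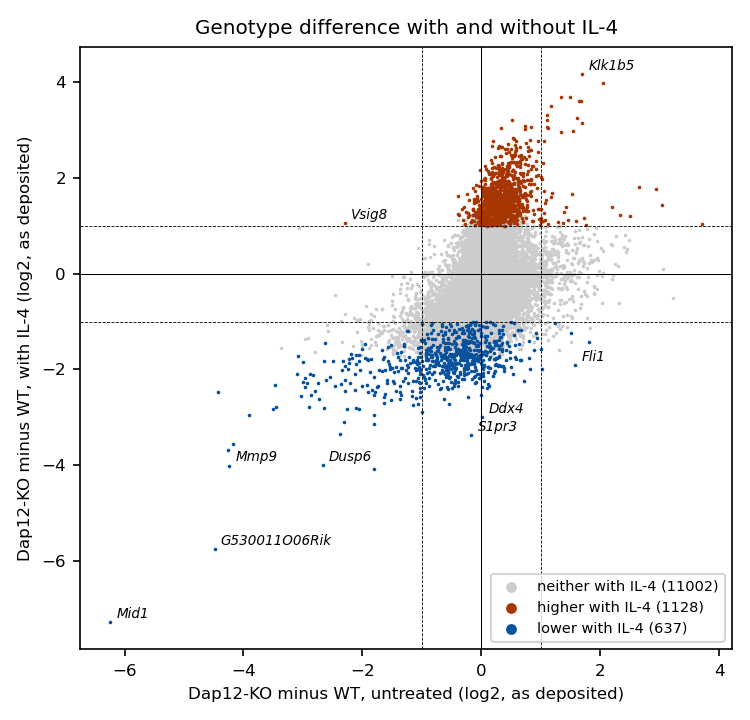
Each point is a gene, with its Dap12-KO minus WT difference untreated on the horizontal axis and with IL-4 on the vertical axis (log2, as deposited); dashed lines mark 2-fold. Mid1, G530011O06Rik, Mmp9 and Dusp6 lie low on both axes, Ddx4 and S1pr3 only on the vertical one, and most genes higher with IL-4 lie just right of 0, with a median of 0.32.

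Genes next to Tyrobp on chromosome 7 were counted by themselves. Of the 50 nearest genes above the floor in RefSeq order, 25 on each side, 8 were higher (16%, against 8.84% of all genes and 12.1% of those on chromosome 7; Clip3, Etv2, Hamp2, Krtdap, Prodh2, Spint2, Upk1a and Wdr62) and 5 lower (10%, against 4.99% and 3.38%; Dmkn, Zfp27, Zfp383, Zfp74 and Zfp82). Their median was −0.44, or 0.09 after cyclic loess, close to that of all genes. All of the lower neighbours but Dmkn are Zfp genes, a family of which 19.1% of 262 tested were lower on this array. Dmkn was also lower and Wdr62 also higher without IL-4.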

How the data were processed

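Per the labels' protocols, biotin-labelled RNA made by repeated in vitro amplification was measured on 1-colour Affymetrix arrays. The authors deposited log2 values of 45101 probe sets, which the submitters' processing notes credit to RMA. Probe-level files and detection calls were not used here.

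Groups came from the titles. A single gene was named by 34945 probe sets, with 34741 symbols updated to RefSeq (GRCm38.p6). Of 18193 genes, 12767 reached the median of all values on at least 1 array. Cyclic loess (3 iterations) and quantile normalization used limma 3.58.1 in R 4.3.3, and the rest Python 3.11.15 with numpy 2.4.6, pandas 2.3.3 and matplotlib 3.10.9. No test was made. On simulated arrays with 1 narrowed, the call found 79% of 100 probe sets raised and 100% of 100 lowered by 2 log2 units, with 0 false calls. Only probe sets well above the floor were changed there, with a small random error and a milder narrowing than on the real array. False calls could hardly arise under those settings, so the 0 does not speak for faint genes or for real array error.

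The text names Tyrobp, 12 genes at each end of the ranking by the smaller difference of both scalings, up to 4 called members of each of 38 lists, and 6 genes called in the same and 6 in the opposite direction without IL-4. Members, lists and rules were chosen with earlier results of these data known. Uncalled list members, genes outside the rule and the symbol families were chosen after their values were seen. Alternatives were other scalings, 3 other floors, a 3-fold threshold, the median over probe sets and every probe set on its own.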

Additional observations from a re-analysis of the deposited data

Results flagged for a closer look

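For 6 named genes the genotype difference had opposite directions with and without IL-4, at 2-fold or more under both scalings each time. With 1 array a group, the difference between these differences was not tested. Fli1, an ETS transcription factor of blood cells, differed by −1.90 with IL-4, at 7.92 in WT and 6.01 on the KO-labelled array, and by 1.58 untreated. The membrane protein Gpr155 differed by −1.44 with IL-4 and 1.82 untreated. The zinc finger gene Zfp467 differed by −1.99 with IL-4 and 1.02 untreated. Znrf3, a ubiquitin ligase that limits Wnt signalling, differed by −1.25 and 1.51, and Ttc30b, a ciliary transport gene, by −1.03 and 1.25. The immunoglobulin domain gene Vsig8 went the other way, with 1.05 with IL-4 and −2.29 untreated. Other probe sets did not all follow with IL-4: that of Fli1 differed by −0.27, those of Zfp467 by −0.62 and 0.14, and that of Znrf3 by 0.43. With each array's median level over probe sets the differences were −1.08 for Fli1 (−0.63 after cyclic loess), −0.62 for Zfp467 and −0.41 for Znrf3, which ends these 3 calls. On the KO-labelled IL-4 array all but Vsig8 read under the floor of 6.39, where the size of a difference is uncertain.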

How the results depend on the processing

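Without replicates the depth of an array gives no error, and dim readings limit the sizes given above. A count was taken as steady within 1.5 times the reported one. The 637 lower genes became 2245 with the deposited values alone, 1008 with quantile normalization (and the 1128 higher ones 1815), 3075 with median centring and 1153 with a level-matched running median over 500 genes. A floor at the 75th percentile left 314 higher and 352 lower of 7793 genes, a 3-fold threshold 338 and 161, and every probe set on its own gave 1784 and 1859 of 22335. The cause of these moves was not tested. The median difference of all genes ranged from −0.53 with median centring to 0.13 with cyclic loess. With each array's median level over a gene's probe sets, 55 of 78 called named genes kept their call, 23 did not, and 5 of these turned direction: Cavin2 (−0.0074), Cdkn1b (0.20), Mid1 (0.31), Per2 (0.075) and Pik3cd (−0.72). The other 18 were Adarb1, Axl, C5ar1, Ccna2, Etv5, Fli1, Hdc, Il13ra1, Jag1, Kalrn, Mcm4, Ptgs2, S1pr3, Tnfrsf11a, Ttn, Vegfa, Zfp467 and Znrf3. Of the other values of named genes under these settings 130 moved by more than 1.5-fold and 339 did not, and of the list medians 4 moved and 224 did not. No paired analysis was possible because each group has 1 array and the labels give no replicate numbers.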

Other observations

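Gene families grouped by symbol, after values had been seen, were unevenly spread over the called genes. Over all genes tested, 8.84% were higher and 4.99% lower with IL-4, and 3.12% and 2.86% untreated. Of 262 zinc finger genes named Zfp, 50 were lower (19.1%) and 16 higher (6.11%) with IL-4 on the KO-labelled array, against 2 lower and 6 higher untreated. Of 15 homeobox Hox genes above the floor, 9 were higher and 0 lower, and the number of Hox genes reaching the floor was 7 untreated and 7 with IL-4 in WT, then 8 untreated and 15 with IL-4 on the KO-labelled arrays. Potassium channel genes named Kcn had 10 of 44 higher (22.7%) and 1 lower (2.27%), with 18, 17, 19 and 44 reaching the floor in that order. Among keratins and keratin-associated genes 5 of 30 were higher (16.7%) and 1 lower (3.33%). Cornified envelope genes (Lce and Sprr) had 6 of 11 higher, and kallikreins 3 of 10. Olfactory receptors had 0 of 6 called in either direction, and ribosomal protein genes by symbol 2 higher and 1 lower of 51. Most of the added Hox and Kcn genes passed the floor only through the KO-labelled IL-4 array, so these counts are a description and support nothing. Over all genes, 10837, 10759, 11111 and 12024 reached the floor in the same order.

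Calls also differed with base composition and chromosome, where over all genes tested 8.84% were higher and 4.99% lower. In the lowest of 5 classes by the share of G and C in the promoter, 11.6% were higher and 5.48% lower, and in the highest class 6.69% and 5.98%. On chromosome X 10.9% of 358 genes were lower and 6.70% higher, on chromosome 13 these were 9.94% and 6.05% of 463, and on chromosome 7, which holds Tyrobp, 3.38% and 12.1% of 1007. These are descriptions of 2 arrays, with no test.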
